A study of Mus musculus with 52 samples.

Results

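The genes described here encode the proteasome, the protease complex that degrades ubiquitin-tagged proteins. Members were taken by symbol, as every gene named Psma, Psmb, Psmc, Psmd or Psme followed by a number alone, and 42 of the 18194 genes measured met that rule. They comprised 7 alpha ring and 7 beta ring subunits of the 20S core, 3 immunoproteasome subunits, 2 tissue-specific core subunits, 6 ATPases and 11 other subunits of the 19S cap, 3 chaperones of cap assembly and 3 activators. Psme2 was measured only by a probe set that it shares with another gene and was not analysed here. Livers came from male C57Bl6/N mice aged 8 to 12 weeks that had undergone partial hepatectomy, the surgical removal of the larger part of the liver, or had been left untreated. RNA was hybridised to Affymetrix mouse expression arrays at 1 hour (3 arrays), 6 hours (4 arrays), 12 hours (4 arrays), 24 hours (11 arrays), 48 hours (4 arrays), 3 days (4 arrays), 4 days (4 arrays), 1 week (4 arrays), 2 weeks (2 arrays), 4 weeks (4 arrays) and 3 months (3 arrays) after surgery, and from 5 untreated control livers. The 52 arrays include no sham-operated liver, so surgery itself and the loss of tissue cannot be told apart. No label says whether each array is from its own mouse, so the p-values refer to array-to-array spread alone.

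The 20S core is a barrel of stacked rings. The outer alpha rings gate the entry, and the inner beta rings carry the active sites of Psmb5 (beta5, chymotrypsin-like), Psmb6 (beta1, caspase-like) and Psmb7 (beta2, trypsin-like). Interferon-inducible Psmb8, Psmb9 and Psmb10 can take the places of these catalytic subunits to form the immunoproteasome, which favours peptides for class I antigen presentation. The 19S cap recognises ubiquitin chains, removes them through the deubiquitinase Psmd14 and threads the substrate into the core with its ring of ATPases, Psmc1 to Psmc6. In the regenerating liver, hepatocytes leave quiescence and enter the cell cycle, and the proteasome is known for degrading cyclins and other regulators of that cycle.

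Promoters are shown for members that moved in different ways below. They come from RefSeq (build GRCm38.p6) and span the bases around the gene start, and 35 of the 42 members had an entry. Psma8, Psmb1, Psmb2, Psmb7, Psmc3, Psmd3 and Psmd7 are named only. Capitals mark the match to a motif searched on both strands. TGACNNNGC, the core of the antioxidant response element to which the proteasome gene activator Nfe2l1 binds with small Maf partners, is marked in Psmb5, Psmb6 and Psmd12. TTCNNNGAA, the interferon-gamma-activated site bound by STAT factors, reads the same on both strands and is marked in Psmb8. The core of the interferon-stimulated response element, GAAA repeated after any 2 bases, is marked in Psme1.
Psmb5, chr14:54617946-54618245, minus strand: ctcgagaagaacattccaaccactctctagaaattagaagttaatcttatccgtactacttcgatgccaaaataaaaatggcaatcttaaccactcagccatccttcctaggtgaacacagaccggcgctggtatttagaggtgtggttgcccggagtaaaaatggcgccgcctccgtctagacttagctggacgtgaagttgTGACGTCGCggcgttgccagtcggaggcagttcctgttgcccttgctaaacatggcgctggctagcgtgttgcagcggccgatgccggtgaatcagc
Psmb6, chr11:70525107-70525406, plus strand: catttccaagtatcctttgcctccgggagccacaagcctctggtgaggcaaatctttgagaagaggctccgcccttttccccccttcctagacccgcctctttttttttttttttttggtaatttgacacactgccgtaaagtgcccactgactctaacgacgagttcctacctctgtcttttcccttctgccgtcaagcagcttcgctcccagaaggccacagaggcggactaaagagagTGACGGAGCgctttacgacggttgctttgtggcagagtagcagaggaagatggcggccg
Psmd12, chr11:107479278-107479577, plus strand: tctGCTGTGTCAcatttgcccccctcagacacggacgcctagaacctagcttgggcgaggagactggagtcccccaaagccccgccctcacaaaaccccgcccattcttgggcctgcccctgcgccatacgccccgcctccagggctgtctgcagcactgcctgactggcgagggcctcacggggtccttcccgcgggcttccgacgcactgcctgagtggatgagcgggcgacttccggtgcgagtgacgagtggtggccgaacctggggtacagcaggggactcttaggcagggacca
Psmb8, chr17:34197945-34198244, plus strand: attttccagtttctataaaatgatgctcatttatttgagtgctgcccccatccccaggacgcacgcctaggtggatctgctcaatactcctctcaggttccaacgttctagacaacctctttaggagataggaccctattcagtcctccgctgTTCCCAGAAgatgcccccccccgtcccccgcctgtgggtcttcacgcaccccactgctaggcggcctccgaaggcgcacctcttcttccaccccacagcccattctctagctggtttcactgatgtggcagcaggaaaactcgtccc
Psme1, chr14:55578244-55578543, plus strand: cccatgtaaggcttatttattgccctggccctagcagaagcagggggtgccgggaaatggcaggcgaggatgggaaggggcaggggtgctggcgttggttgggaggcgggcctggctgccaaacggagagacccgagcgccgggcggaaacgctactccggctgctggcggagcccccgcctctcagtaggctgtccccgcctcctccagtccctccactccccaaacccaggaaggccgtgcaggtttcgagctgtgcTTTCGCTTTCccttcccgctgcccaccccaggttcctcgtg
TGACNNNGC was found in 6 of the 35 members (17.1%; Psmb5, Psmb6, Psmc6, Psmd9, Psmd12 and Psme4), against 14% of the 27025 genes in the table and 12.4% of its 32851 promoters. The interferon-stimulated core was found in 4 members (11.4%; Psmb3, Psmd4, Psmd9 and Psme1), against 3.99% of genes and 3.44% of promoters. TTCNNNGAA was found in 2 members (5.71%; Psmb8 and Psmd2), against 9.55% of genes and 8.30% of promoters. CCAAT, the letters bound by NF-Y, was found in 14 members (40%), against 41.1% of genes and 37.4% of promoters. The motifs are short, and a match is a description of the sequence alone.

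Levels are log2 values normalised by robust multi-array averaging, and a difference of 1 is a doubling. Each gene is represented by its brightest single-gene probe set over all arrays. Differences were tested with limma in 1 fit over all 52 arrays and all 18194 genes, and a gene is called higher or lower where its Benjamini-Hochberg adjusted p was below 0.05. Some arrays stood apart before any gene was compared. The spiked-in hybridisation controls averaged between 9.73 and 10.38 in the operated groups and 10.85 ± 0.29 (SD, n = 5) in the control group. In 7 arrays (24-hour replicates 1, 9, 10 and 11, 1-week replicate 4, 4-week replicate 1 and control replicate 1) the Gapdh probe sets, the correlation with their own group or the female-specific transcript Xist were out of place. Xist read 9.12 to 9.49 in 24-hour replicates 9 to 11, although every mouse is labelled male. Counts without these 7 arrays are given beside the main ones. With the hybridisation controls as a covariate, no member was called against control at 1 hour, at 3 or 4 days, at 1 or 2 weeks or at 3 months. That fit called few genes of any kind at those times, between 0.0% of all genes at 3 months and 1.03% at 3 days, with 0.0879% at 1 hour. At 24 hours it called 25 members (13.3% of all genes) and at 12 hours 22 (20.1% of all genes).

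Most core and cap genes were higher at 12 and 24 hours after surgery than in untreated liver. Of the 14 genes of the core rings 11 were higher at each of these times, and of the 17 cap genes 12 were higher at 12 hours and 13 at 24 hours. At 24 hours 29 of the 42 members were higher (18.9% of all genes were) and 1 was lower (12.8% of all genes, 31.7% in either direction), with a median difference of 0.50 over the members and -0.01 over all genes. At 12 hours 28 were higher (17.9% of all genes) and 3 lower (12% of all genes, 29.9% in either direction), with a median of 0.43 over the members and -0.04 over all genes. Without the 7 arrays that stood apart, 28 were higher and 0 lower at 24 hours, and 22 were higher and 4 lower at 12 hours. Cell type markers moved at 24 hours as well. Of 10 Kupffer cell markers, which stand for the resident macrophages of the liver, 9 were higher (median 2.03), and the log2 of their summed signal was 9.36 to 10.95, against 7.68 to 8.72 in controls. Of 10 hepatocyte markers 4 were lower and 0 higher, with a sum of 16.08 to 16.35, against 16.35 to 16.41 in controls. Their part in the 24-hour count was not tested. The F test over the 11 times called 41 members, against 64.6% of all genes.

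At each of the other times fewer members were called higher, though the counts at 4 days and 1 week came close to that at 12 hours. The calls at 4 days and 1 week were lost with the hybridisation controls as a covariate, as given above. At 1 hour 9 members were higher (3.67% of all genes) and 2 lower (1.37%, 5.04% in either direction), but 5 were higher and 1 lower without the 7 arrays. The 11 calls dropped to 3, 4 or 5 without 1-hour replicate 1, 2 or 3 and to 4 without control replicate 1. At 6 hours 15 were higher (11.4%) and 5 lower (10.5%, 22% in either direction), and without control replicate 1 the count was 13. At 48 hours 22 were higher (17.4%) and 2 lower (13.4%, 30.8% in either direction). At 3 days 23 were higher (21.7%) and 3 lower (17.7%, 39.4% in either direction). At 4 days 27 were higher (18.8%) and 2 lower (14.1%, 32.8% in either direction), and at 1 week 27 were higher (21.8%) and 2 lower (14.9%, 36.7% in either direction). At 2 weeks, with 2 arrays, 3 were higher (2.8%) and 1 lower (0.605%, 3.41% in either direction), and the count was 0 without either 2-week array, 1 without control replicate 1 and 7 without control replicate 4. At 4 weeks 21 were higher (9.33%) and 1 lower (5.38%, 14.7% in either direction), but 10 and 1 without the 7 arrays, and the count was 12 without control replicate 1 and 13 without 4-week replicate 1. At 3 months 24 were higher (16.7%) and 2 lower (13.4%, 30.1% in either direction). All 11 comparisons share the same 5 control arrays.

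**Figure D1:**
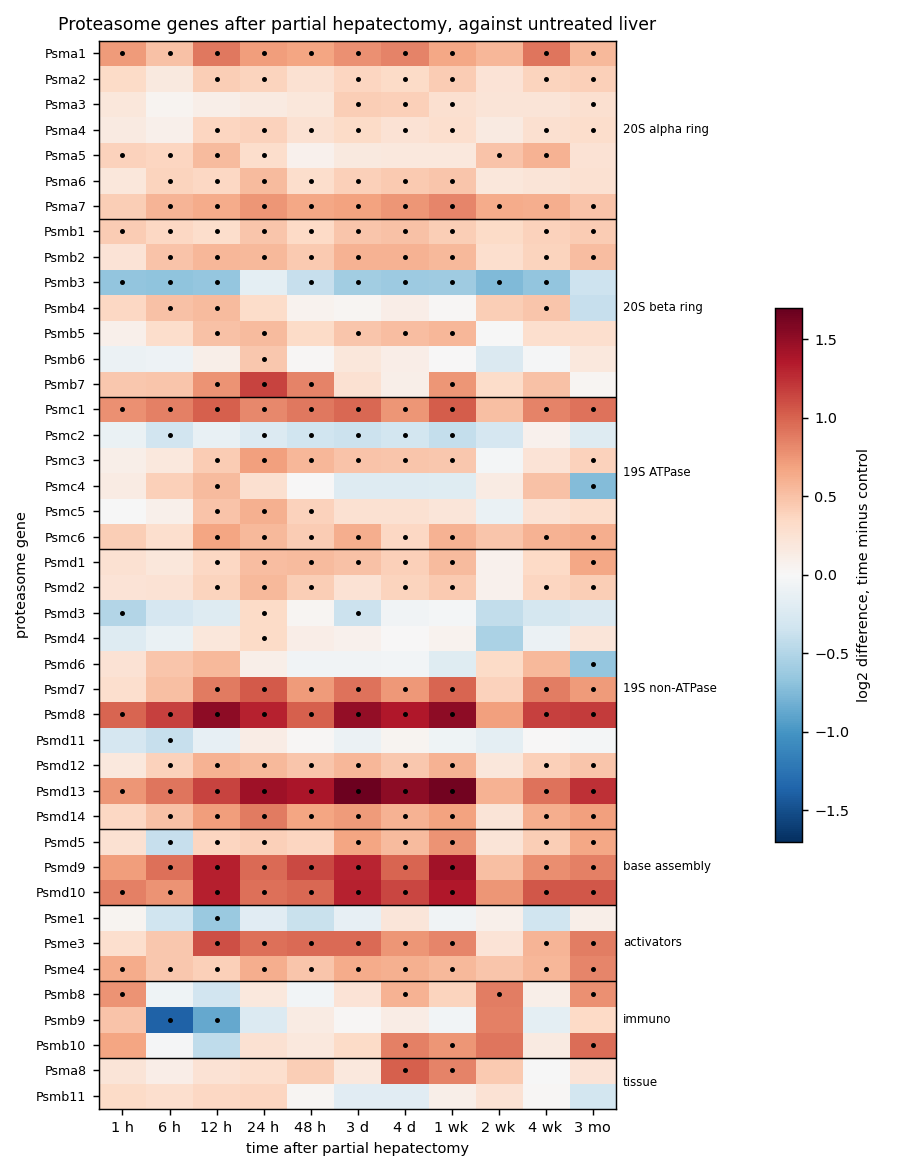
Difference in log2 level from untreated liver for each of the 42 proteasome genes (rows, grouped by role) at the 11 times after partial hepatectomy (columns). Dots mark adjusted p below 0.05. At 24 hours 11 of 14 core genes and 13 of 17 cap genes are called higher, and Psmb9 is lowest at 6 hours.

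The 7 alpha ring subunits, which form the outer rings and the gate, were all above their control mean at 24 hours, and 6 of them were called higher. The median difference over the 7 was 0.39. Psma7 had the largest F statistic of the ring. It ran from 9.26 through a median of 9.56 to 9.84 at 24 hours, against 8.29, 9.10, 8.81, 9.17 and 8.86 in controls. The groups did not overlap, and the difference was 0.74 ± 0.11 (SE, adjusted p = 5.4e-07). Psma1 was higher by 0.71 ± 0.13 at 24 hours (adjusted p = 4.3e-05) and by 0.89 ± 0.16 at 12 hours (adjusted p = 3.5e-05). With the mean of its probe sets in place of the brightest the 24-hour difference was 0.11 and was not called. Its other sets were dim, with mean levels of 3.65, 2.48 and 2.18, against 9.71 for the brightest. Psma5 was higher by 0.54 ± 0.11 at 12 hours, was not called between 48 hours and 1 week (0.07 to 0.18), and was higher again by 0.60 ± 0.11 at 4 weeks. The difference between its probe sets followed a component described below, and arrays with a low score on it fall within that interval. Psma2, with the smallest F statistic of the ring, was called higher at 7 of the 11 times, with 0.38 ± 0.08 at 24 hours.

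Among the 7 beta ring subunits 5 were called higher at 24 hours and none lower, with a median of 0.48. Psmb6, the caspase-like catalytic subunit, was called against control at 24 hours and at no other time. It ran from 10.31 through a median of 10.49 to 10.81 at 24 hours, against 10.07, 10.06, 10.13, 10.07 and 10.05 in controls. All 11 arrays at 24 hours lay above all 5 controls, and the difference was 0.46 ± 0.09 (SE, adjusted p = 8e-05). With the hybridisation controls or the probe set component described below as a covariate it was 0.31 and 0.26, with an adjusted p of 0.04 in both. Psmb5, the chymotrypsin-like subunit, was higher by 0.54 ± 0.12 at 24 hours (adjusted p = 0.00049), but with those covariates by 0.41 and 0.24 (adjusted p = 0.059 and 0.16). Psmb7, the trypsin-like subunit, differed by 1.15 ± 0.21 at 24 hours (adjusted p = 5.2e-05), the largest 24-hour difference among the 14 core genes, and by 0.76 with the hybridisation controls as a covariate (adjusted p = 0.036). Its 24-hour arrays ran from 8.16 through a median of 8.55 to 9.59, against 6.88, 7.73, 7.55, 8.22 and 7.61 in controls, so the groups overlapped at their edges. Psmb2 was higher by 0.55 ± 0.09 and Psmb1, the subunit of the ring with the smallest F statistic, by 0.48 ± 0.09 at 24 hours. Psmb3, a non-catalytic subunit, went against the ring: its brightest probe set was lower at 9 of the 11 times, with -0.65 ± 0.14 at 12 hours (adjusted p = 0.00021). Its other probe set is described below.

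Of the 6 ATPases, which unfold substrates at the base of the cap, 4 were higher and 1 lower at 24 hours, and 5 higher and 0 lower at 12 hours. Psmc3 had the largest F statistic of these and differed by 0.70 ± 0.10 at 24 hours (adjusted p = 2.4e-07). Psmc5 ran from 9.36 through a median of 9.84 to 10.17 at 24 hours, against 8.99, 9.16, 9.29, 9.46 and 9.19 in controls. The lowest 24-hour array, replicate 1, lay within the range of the controls and the others above it, and the difference was 0.60 ± 0.10 (adjusted p = 1.3e-05). Psmc1 was higher at 10 of the 11 times, by up to 1.03 ± 0.17 at 1 week. Psmc6, with the smallest F statistic among the ATPases, was higher by 0.55 ± 0.10 at 24 hours. The brightest probe set of Psmc2 was lower at 6 times, with -0.23 ± 0.07 at 24 hours (adjusted p = 0.0085).

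Of the 11 other cap subunits 9 were higher and 0 lower at 24 hours, with a median of 0.54. Psmd13, a structural subunit of the lid, had the largest F statistic of all members. It ran from 8.06 through a median of 8.68 to 8.80 at 24 hours, against 6.12, 7.58, 7.36, 7.52 and 7.13 in controls. No 24-hour array overlapped a control, and the difference was 1.44 ± 0.17 (adjusted p = 1.3e-08). Control replicate 1 was the lowest control, and without the 7 arrays the difference was 1.14. The mean of its probe sets gave 0.36 (adjusted p = 0.001), and the component as a covariate gave 0.87. Its second set, with a mean level of 7.37, was higher by 0.93 at 24 hours (adjusted p = 1.3e-07). The dimmer sets, at 4.11 and 3.995, differed by -1.22, called lower, and by 0.30, not called. Psmd14, the deubiquitinase, ran from 9.89 through a median of 10.14 to 10.25 at 24 hours, against 8.86, 9.37, 9.24, 9.50 and 9.11 in controls. The groups were again apart, with a difference of 0.88 ± 0.10 (adjusted p = 5.8e-09). Psmd8, a lid subunit, differed by 1.52 ± 0.20 at 12 hours and by 1.31 ± 0.16 at 24 hours. Psmd7, the partner of Psmd14 in the lid, differed by 1.04 ± 0.16 at 24 hours (adjusted p = 3.5e-06). Psmd3 was lower at 1 hour (-0.50 ± 0.15) and at 3 days (-0.37 ± 0.14) but higher at 24 hours (0.33 ± 0.11). Psmd11 was lower at 6 hours (-0.40 ± 0.11), and Psmd6 was lower at 3 months (-0.65 ± 0.25, adjusted p = 0.046).

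The chaperones that assemble the base of the cap, Psmd5, Psmd9 and Psmd10, were all higher at 12 and at 24 hours. Psmd10, also known as gankyrin, differed by 1.32 ± 0.21 at 12 hours (adjusted p = 5.7e-06) and by 0.94 ± 0.17 at 24 hours. Psmd9 differed by 1.31 ± 0.21 at 12 hours and by 0.96 ± 0.17 at 24 hours (adjusted p = 2.5e-05). With the mean of its probe sets the 24-hour difference was 0.22 and not called. Its other sets were dimmer, with mean levels of 4.79 and 2.68, against 7.85 for the brightest. Psmd5 was lower at 6 hours (-0.39 ± 0.14, adjusted p = 0.043) and higher at 7 other times, with 0.77 ± 0.14 at 1 week.

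The 3 measured activators, which bind the open ends of the core, split. Psme3, the nuclear activator PA28 gamma, had levels of 7.20, 7.30, 7.19 and 7.29 at 12 hours, against 5.94, 6.26, 6.14, 6.26 and 6.17 in controls. All 12-hour arrays were above all controls, with a difference of 1.09 ± 0.21 (adjusted p = 5.8e-05). Psme4, which encodes PA200, was higher at 10 of the 11 times, with 0.62 ± 0.11 at 24 hours. Psme1, the interferon-inducible PA28 alpha, had levels of 8.69, 8.59, 8.60 and 8.37 at 12 hours, against 9.30, 9.18, 9.18, 9.24 and 9.06 in controls. All 12-hour arrays were below all controls, and the difference was -0.63 ± 0.17 (adjusted p = 0.0029). The tissue-specific core genes Psma8 of the testis and Psmb11 of the thymus had low signal, with means of 3.88 and 3.32 over all arrays, where the median probe set read 3.92 to 4.04. Psma8 was called higher at 4 days (1.02 ± 0.29) and 1 week (0.85 ± 0.29).

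Comparing operated livers with each other leaves the control arrays out of the difference. They still enter the spread, which was estimated over all 52 arrays. At 24 hours 15 of the 42 members were higher than at 1 hour (7.96% of all genes were) and 1 was lower (5.14%, 13.1% in either direction), with a median of 0.24 over the members and -0.01 over all genes. In the cap 10 of 17 genes were higher and 0 lower, with a median of 0.38, while 4 of 14 core genes were higher and 0 lower, with a median of 0.28. Without the 7 arrays, 19 members were higher and 1 lower. The 1-hour group has 3 arrays, and the count of 16 dropped to 9, 6 and 7 when 1-hour replicate 1, 2 or 3 was left out.

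Psmd3 had the largest difference between these times. It ran from 8.24 through a median of 8.39 to 8.89 at 24 hours, against 7.58, 7.57 and 7.76 at 1 hour, with no overlap and a difference of 0.83 ± 0.14 (adjusted p = 5.5e-05). Psmc5 ran from 9.36 through 9.84 to 10.17 at 24 hours, against 9.18, 9.25 and 9.18 at 1 hour, with a difference of 0.62 ± 0.12 (adjusted p = 0.00065). Psmb6 ran from 10.31 through 10.49 to 10.81 at 24 hours, against 9.97, 9.88 and 10.07 at 1 hour, with a difference of 0.56 ± 0.11 (adjusted p = 0.00031). In each of these genes every 24-hour array was above every 1-hour array. The other genes called higher were Psma6, Psmb3, Psmb5, Psmc3, Psmd2, Psmd4, Psmd7, Psmd11, Psmd12, Psmd13, Psmd14 and Psme3, with differences from 0.32 (Psmd2) to 0.75 (Psmd7). Psmd4 is a ubiquitin receptor of the cap. The assembly chaperones were not called here, at 0.08 ± 0.21 for Psmd10, 0.15 ± 0.14 for Psmd5 and 0.24 ± 0.21 for Psmd9. The gene called lower was Psmb8 (-0.58 ± 0.19, adjusted p = 0.032), a call lost without any single 1-hour array (adjusted p = 0.074 to 0.21).

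**Figure D2:**
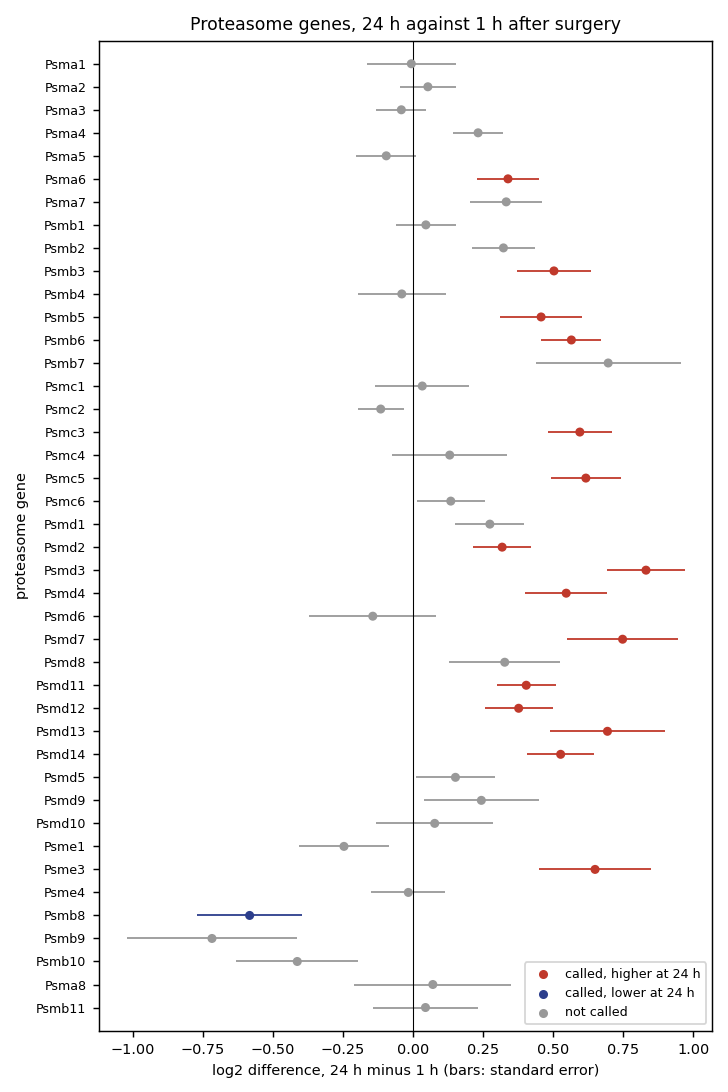
Difference in log2 level between 24 hours and 1 hour after surgery for each proteasome gene, with its standard error from the fit over all arrays. The 15 red genes are called higher at 24 hours, led by Psmd3 at 0.83, and Psmb8 is called lower.

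Later times were compared with 24 hours directly. At 48 hours against 24 hours 0 members were higher (3.57% of all genes) and 1 was lower (1.9%, 5.47% in either direction). That gene was Psmb6, with 9.95, 10.07, 10.27 and 10.12 at 48 hours, all below the lowest 24-hour array of 10.31, and a difference of -0.44 ± 0.10 (adjusted p = 0.0027). At 1 week against 24 hours 1 member was higher (8.58%) and 4 were lower (5.06%, 13.6% in either direction). Psmb6 (-0.46), Psmb3 (-0.45), Psmc5 (-0.40) and Psmd3 (-0.36) were lower, and Psmd5 (0.36) was higher. Without the 7 arrays 1 was higher and 8 were lower, and the 5 calls became 3, 2, 2 and 8 without 1-week replicate 1, 2, 3 and 4. With array weights 18 were called. At 3 months against 24 hours 2 were higher (10.8%) and 6 lower (9.43%, 20.2% in either direction). Psmb8 (0.60 ± 0.19) and Psmb10 (0.69 ± 0.22) were the higher ones, but not without 3-month replicate 3 (both 0.45, adjusted p = 0.17 and 0.23). Neither was called with the hybridisation controls as a covariate (0.27 and 0.31, adjusted p = 0.38 and 0.39). The same held with the probe set component described below (0.48 and 0.44, adjusted p = 0.077 and 0.12) and with a replicate block (adjusted p = 0.12 and 0.19). Psmb7 had the most negative difference, at -1.12 ± 0.26 (adjusted p = 0.0019).

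**Figure D3:**
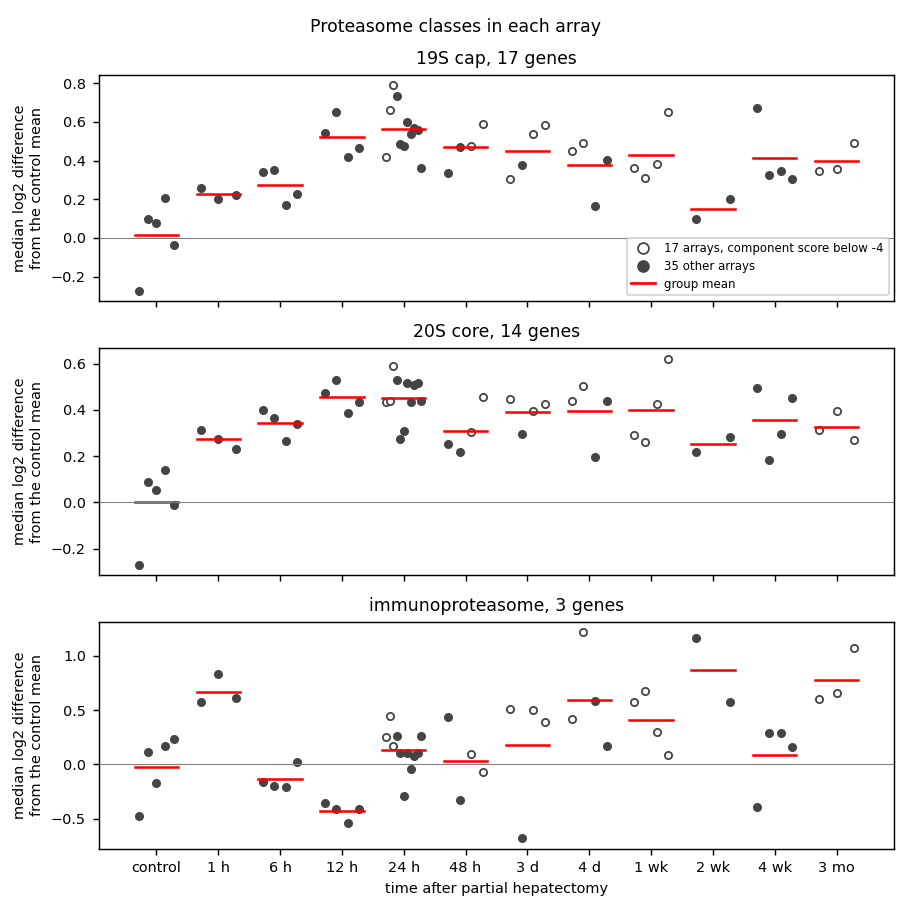
Each point is 1 array and shows the median, over the genes of a class, of the log2 difference from the control mean. The panels show the 19S cap (17 genes), the 20S core (14 genes) and the immunoproteasome (3 genes), with red lines at group means and open circles for the 17 arrays with a component score below -4. The immunoproteasome has its lowest group mean at 12 hours, with arrays between -0.54 and -0.36, where core and cap are near their highest.

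The immunoproteasome followed another course. In the class median per array it lay between -0.54 and -0.36 at 12 hours and between 0.57 and 0.83 at 1 hour, while the control arrays ran from -0.47 to 0.23. Core arrays at 12 hours lay between 0.39 and 0.53, and cap arrays between 0.42 and 0.65. Against 1 hour, all 3 immunoproteasome genes fell at 12 hours (4.99% of all genes did, and 13.1% changed in either direction), and of the other members only Psme1 was lower. Psmb8 (beta5i) had levels of 6.71, 6.60, 6.40 and 6.67 at 12 hours, against 7.55, 7.93 and 7.59 at 1 hour. Its difference was -1.09 ± 0.22 (adjusted p = 0.00073). Psmb9 (beta1i) had levels of 6.36, 5.79, 5.89 and 6.15 at 12 hours, against 7.39, 7.47 and 7.35 at 1 hour. Its difference was -1.35 ± 0.36 (adjusted p = 0.0078). Psmb10 (beta2i) had levels of 7.07, 7.02, 6.89 and 7.01 at 12 hours, against 7.99, 8.26 and 8.03 at 1 hour, a difference of -1.10 ± 0.26 (adjusted p = 0.0028). In none of these genes did a 12-hour array reach a 1-hour array. None of the arrays in this comparison is among the 7 that stood apart. The members higher at 12 hours than at 1 hour (8.1% of all genes) were Psmd12, Psmc5 and Psme3. Without the 7 arrays in the fit, which changes the estimated spread, 11 members were higher and 4 lower. The 7 calls dropped to 4 without 1-hour replicate 1 or 3. Psmb8, Psmb9 and Psmb10 stayed called lower under each of the 20 alternatives run, with adjusted p up to 0.035, while Psme1 was not called without 1-hour replicate 1 (-0.65, adjusted p = 0.057).

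Against untreated liver Psmb9 was lower at 6 hours. It had levels of 5.58, 5.29, 5.62 and 5.66 at 6 hours, against 6.62, 7.03, 6.75, 7.06 and 7.13 in controls. The groups did not overlap, with a difference of -1.38 ± 0.31 (adjusted p = 0.00075). At 12 hours Psmb9 differed from control by -0.87 ± 0.31 (adjusted p = 0.03), a call lost without control replicate 2, 4 or 5 or 12-hour replicate 2 or 3 (adjusted p = 0.051 to 0.094). Psmb8 and Psmb10 were not called at 6 or 12 hours, with -0.33 ± 0.19 and -0.43 ± 0.22 at 12 hours. Psmb8 was higher than control at 1 hour (0.76 ± 0.21, adjusted p = 0.024), but not without control replicate 1 (0.65, adjusted p = 0.12), nor without control replicate 3 or any single 1-hour array. Late in the course Psmb10 was higher at 4 days (0.86 ± 0.22, adjusted p = 0.0031), 1 week (0.75 ± 0.22) and 3 months (0.95 ± 0.24). At 4 days it differed by 0.05 with the hybridisation controls as a covariate (adjusted p = 0.96) and by 0.36 with the probe set component described below (adjusted p = 0.35). Under either covariate none of the 3 genes was called at 4 days, 1 week or 3 months. Psmb8 was higher at 4 days (0.60 ± 0.19), 2 weeks (0.87 ± 0.24) and 3 months (0.78 ± 0.21). At 4 days 4 of 5 leukocyte markers and 9 of 10 Kupffer cell markers were called higher, with summed levels of 8.08 to 8.86, against 6.97 to 7.29 in controls, and of 9.63 to 10.91, against 7.68 to 8.72 in controls. Their part in the late differences was not tested.

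**Figure D4:**
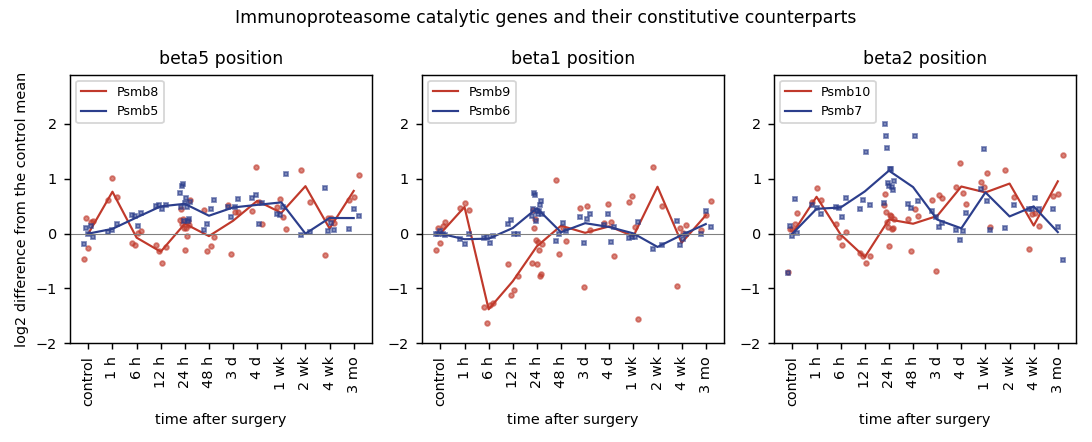
Log2 difference from the control mean for each immunoproteasome catalytic gene (red circles) and the constitutive gene whose place it takes (blue squares), per array, with lines through group means. At 12 hours the red line lies below the blue line at all 3 catalytic positions.

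The change of each immunoproteasome gene was set against that of the constitutive subunit it replaces, as the difference of their log2 levels in each array. Over the 3 pairs and 11 times, 33 exact two-sided permutation tests against control were made and adjusted together. At 12 hours Psmb8 minus Psmb5 lay between -3.93 and -3.68, against -3.25 to -2.67 in controls, a shift of -0.83 (exact permutation p = 0.0079, adjusted p = 0.044). Psmb9 minus Psmb6 shifted by -1.29 at 6 hours and by -0.97 at 12 hours (both exact permutation p = 0.0079, adjusted p = 0.044), and by -0.69 at 24 hours (exact permutation p = 0.0039, adjusted p = 0.044). Psmb10 minus Psmb7 shifted by -1.20 at 12 hours (exact permutation p = 0.0079, adjusted p = 0.044) and by -0.89 at 24 hours (exact permutation p = 0.00069, adjusted p = 0.023). At 6 and 12 hours the called pairs did not overlap with controls, and at 24 hours they did. A shift can come from either gene of a pair. At 24 hours Psmb10 differed from control by 0.26 and Psmb7 by 1.15, and Psmb9 by -0.23 and Psmb6 by 0.46. At 12 hours Psmb8 differed by -0.33 and Psmb5 by 0.50, and Psmb10 by -0.43 and Psmb7 by 0.77. Psmb9 and Psmb6 differed by -0.87 and 0.10 at 12 hours and by -1.38 and -0.09 at 6 hours. With 4 arrays against 5 the smallest p possible is 0.0079. With 1 array fewer it is 0.018 or 0.029, so the 6-hour and 12-hour calls could hardly pass the joint adjustment then, and their loss says nothing of their stability. The shifts themselves, with any 1 array left out, were -0.90 to -0.75 for Psmb8 minus Psmb5 at 12 hours, -1.36 to -1.20 at 6 hours and -1.05 to -0.83 at 12 hours for Psmb9 minus Psmb6, and -1.32 to -0.92 for Psmb10 minus Psmb7 at 12 hours. Without the 7 arrays, which include 1 control and some of the 24-hour arrays, no test passed for any pair. In that setting the smallest p possible is higher at 24 hours too. With 1 control left out the smallest p possible at 24 hours is 0.00073. The tests were adjusted together, however. The adjusted p of 0.044 for Psmb9 minus Psmb6 at 24 hours is that of the 6-hour and 12-hour tests, so its call can be lost with theirs. Both 24-hour calls were lost without control replicate 1 alone, where no pair was called at any time. What the loss at 24 hours rests on was not tested. The other 27 tests did not pass, among them all 9 at 1 hour, 2 weeks and 3 months, where the smallest p possible is 0.018, 0.048 and 0.018.

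Immune cells express immunoproteasome genes at high level, and in whole liver fewer cells of a type and less RNA per cell cannot be told apart. The log2 of the summed signal of 5 leukocyte markers (Ptprc, Cd52, Cd53, Coro1a and Laptm5) lay between 6.95 and 7.59 at 12 hours and between 7.65 and 8.37 at 1 hour, while controls lay between 6.97 and 7.29. At 12 hours against 1 hour 0 of these 5 were called, with a median of -0.60. The summed level of 10 Kupffer cell markers was 8.76 to 9.34 at 12 hours and 9.46 to 10.68 at 1 hour, and 1 of the 10 was lower. At 3 months the leukocyte sum was 8.52 to 9.09, and at 2 weeks 8.22 and 9.09. Against controls, whose Kupffer cell sum was 7.68 to 8.72, the Kupffer cell sum lay higher at 12 hours and at 6 hours (9.02 to 9.32). The leukocyte sum at 6 hours, when Psmb9 was lower than in controls, was 7.55 to 7.72, above every control. Lymphocyte markers had low sums over 9 genes, at 6.74 to 6.94 at 12 hours, 7.09 to 7.13 at 1 hour and 6.94 to 7.21 in controls. Every 12-hour array lay below every 1-hour array and, narrowly, below every control (6.937 against 6.941). None of the 9 genes was called at 12 hours against 1 hour or control. The T cell markers Cd3d, Cd3e and Cd3g had group means between 2.29 and 4.80. The sum of 5 neutrophil markers (S100a8, S100a9, Mpo, Elane and Csf3r) did not fall from 1 to 12 hours. It was 7.94 to 8.89 at 12 hours and 7.13 to 8.42 at 1 hour, ranges that overlapped, against 7.18 to 7.26 in controls. At 6 hours it was 7.92 to 8.79. Hepatocyte markers summed to 16.25 to 16.33 at 12 hours, against 16.35 to 16.41 in controls. The part of these cells in the immunoproteasome result was not tested.

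Other genes of class I antigen presentation were read beside it. At 12 hours against 1 hour 2 of 9 were lower (4.99% of all genes were) and 0 higher (8.1% of all genes). These were Tapbp, which holds the class I molecule at the peptide transporter (-0.78 ± 0.20, adjusted p = 0.0074), and B2m, the light chain of class I (-0.44 ± 0.15, adjusted p = 0.044). Against control at 12 hours 3 of 9 were lower (12% of all genes were) and 1 higher (17.9% of all genes). Irf1, a factor that drives immunoproteasome genes, differed by -0.80 ± 0.25 (adjusted p = 0.013), and the trimming peptidase Erap1 was higher by 0.48 ± 0.14 (adjusted p = 0.0059).

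The 42 members had 88 single-gene probe sets in all, and 22 members had more than 1. In 11 genes, probe sets of the same gene were called in opposite directions in at least 1 of the 16 comparisons. In 6 of these (Psma1, Psmc1, Psmd9, Psmd13, Psme3 and Psme4) no such conflict arose among sets with a mean level of at least 8. Of those 6 only Psme4 has more than 1 set at or above that level, so in the rest no such conflict was possible. In the remaining 5 of the 11 genes (Psmb3, Psmc2, Psmc4, Psmd6 and Psmd11) sets at or above that level disagreed. Psmc2 disagreed in 5 comparisons: at 24 hours its brightest set differed from control by -0.23 and the second by 0.67, both called. Psmb3 disagreed in 3: at 3 days its sets differed by -0.59 and 0.42. Psmc4 and Psmd6 disagreed at 3 months, where Psmc4 differed by -0.74 on its brightest set and 0.67 on the other, and Psmd6 by -0.65 and 0.48. Psmd11 disagreed among bright sets in 3 comparisons, at 3 days by -0.77 on one and 0.62 on another. With the mean of each gene's probe sets in place of the brightest, 29 members were higher and 0 lower at 24 hours.

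The size of such differences varied between arrays of the same time. The differences between the probe sets of 667 other genes were reduced to a first component, which held 41.7% of their variance and placed 17 of the 52 arrays below a score of -4, a limit chosen after the scores were seen. These were 3 of 11 arrays at 24 hours, 2 of 4 at 48 hours, 3 of 4 at 3 days, 2 of 4 at 4 days, all 4 at 1 week and all 3 at 3 months. No array of the control, 1-hour, 6-hour, 12-hour, 2-week or 4-week groups was among them. The brightest minus the second set of Psmc4 lay between 0.03 and 0.81 in the 17 arrays and between 1.00 and 1.99 in the 35 others, with no overlap. For Psmb4 the ranges were -0.70 to -0.06 in the 17 arrays and 0.08 to 0.89 in the 35, again apart. For Psmd6 they were -1.16 to -0.13 and -0.15 to 0.72, which overlapped at their edges. For Psma5 they were 0.05 to 0.66 and 0.43 to 1.31, and for Psmc2 -0.59 to 0.13 and -0.27 to 1.39, and both overlapped. Over the 52 arrays the score correlated with the Psmc4 difference at r = 0.95, with the Psma5 difference at r = 0.92 and with the Psmc2 difference at r = 0.79, given as a description of arrays that share times.

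**Figure D5:**
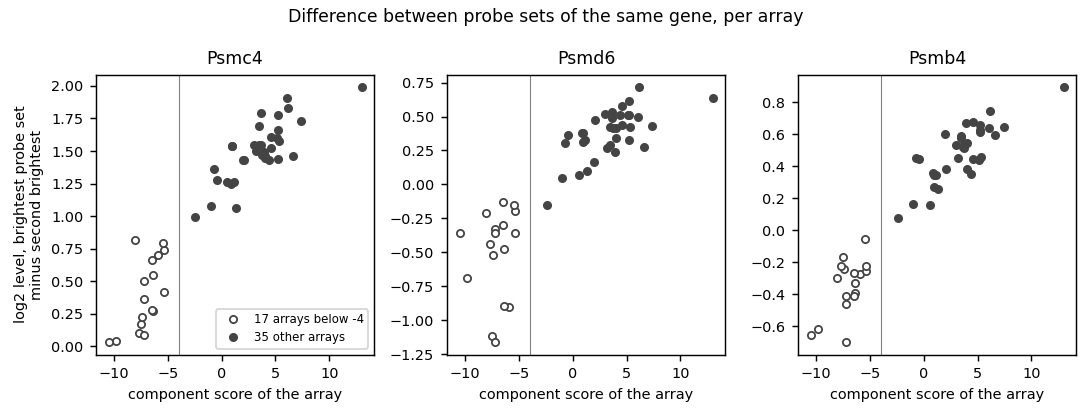
For Psmc4, Psmd6 and Psmb4, the log2 level of the brightest probe set minus that of the second (vertical) against the component score of the array (horizontal), 1 point per array. The 17 arrays with a score below -4 lie apart from the 35 others for Psmc4 and Psmb4.

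Restricted to the 35 arrays, 33 members were higher and 2 lower at 24 hours against control (31.2% of all genes were called). At 12 hours 29 were higher and 4 lower (37.2% of all genes, against 29.9% in the fit over all arrays). At 24 hours against 1 hour 16 were higher and 3 lower (15.4%). Against control 12 were higher and 3 lower at 48 hours (20.6%) and 14 and 1 at 4 days (17.6%), each with 2 of the 4 arrays left out. At 4 weeks, where every array was kept, 24 were higher and 2 lower (21.6%). At 3 days 1 array remained, so no count is given. At 1 week and at 3 months every array was below the limit, so time and array set cannot be told apart there. With the component score as a covariate, 27 members were higher and 1 lower at 24 hours (15.6% of all genes were called). The same fit gave 22 and 2 at 4 weeks (14.5% of all genes). It gave 6 and 1 at 1 week (5.94% of all genes) and 0 and 1 at 3 months (1.56% of all genes). In that fit the differences of Psmc4 and Psmd6 at 3 months turned to 0.20 each and were not called. The second probe set of each gene was called higher at that time.

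Lists of genes that work with the proteasome were read against the 18.9% of all genes that were higher at 24 hours. Against control 3 of 6 genes for assembly of the core and its inhibitor were higher and 0 lower, with a median of 0.30. These were the assembly chaperones Psmg2 (0.66 ± 0.15, adjusted p = 0.00098), Psmg4 (0.51 ± 0.14) and Pomp (0.33 ± 0.08). Of 7 genes of the p97 unfoldase, which extracts tagged proteins from membranes and complexes, 4 were higher and 0 lower, led by the cofactors Ufd1 (1.03 ± 0.11, adjusted p = 2.8e-09) and Nploc4 (0.61 ± 0.12). Of 8 ubiquitin receptors, shuttles and deubiquitinases 4 were higher and 0 lower, among them the shuttles Ubqln2 (0.86 ± 0.19) and Ubqln1 (0.80 ± 0.12) and the cap-bound deubiquitinase Uchl5 (0.70 ± 0.16). Uba6, a ubiquitin-activating enzyme, was higher by 0.53 ± 0.19. Of 6 genes of the Nfe2l1 pathway, which raises proteasome transcription when degradation is short, 1 was higher at 24 hours and 0 lower, a share near that of all genes, and Nfe2l1 itself was not called (-0.14 ± 0.12). At 24 hours against 1 hour Nfe2l1 was higher by 0.55 ± 0.15 (adjusted p = 0.011), and its small Maf partner Maff was lower (-1.20 ± 0.28, adjusted p = 0.0033).

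Across the 52 arrays the correlation of each gene with the median of the other core and cap genes was highest for Psma4 (r = 0.81), Psmd2 (0.80), Psmc5 (0.79) and Psmd12 (0.79). It was lowest for Psme1 (-0.32), Psmb9 (-0.23), Psmb8 (-0.13) and Psmc2 (-0.13), with Psmb10 at -0.06. Within the immunoproteasome the median pairwise r was 0.73 over 3 pairs, against 0.53 over 21 alpha ring pairs, 0.21 over 21 beta ring pairs, 0.05 over 15 ATPase pairs and 0.59 over 55 pairs of other cap subunits. These are descriptions over arrays that share times and array quality, and the ATPase value includes Psmc2 and Psmc4, whose probe sets disagreed.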

How the data were processed

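Levels are log2 intensities that were deposited after robust multi-array averaging (RMA), per the submitters' processing notes, which name oligo 1.52.0. Of 45101 probe sets, 34945 are annotated to 1 gene, and the brightest set per gene over all arrays was kept, which gave 18194 genes. Group means were fitted with limma 3.58.1 in R 4.3.3 to all 52 arrays, and contrasts were tested two-sided with Benjamini-Hochberg adjustment over all genes; the fit was tested on simulated data. The number of arrays limits the precision, and no 2 arrays were identical. Pairs of genes were compared by exact permutation tests. Members and gene lists were chosen with earlier results of these data known. Described in full were the catalytic and immunoproteasome subunits, the activators, in each other class the 3 members with the largest F and the 1 with the smallest, members called against their class, and members with opposed probe sets. Alternatives comprised leaving out arrays, other normalisations and summaries, covariates, array weights and a replicate block. The probe set component and the 35-array subset were added after seeing the data. Promoters came from RefSeq, and the genome build of the probe annotation was not given in the sources used here.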

Additional observations from a re-analysis of the deposited data

Results flagged for a closer look

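In 14 of 96 sets of 1 gene in 1 group of 4 to 10 arrays, over 12 genes, a single array lay far from the others by Dixon's criterion, which chance meets in about 1 in 20 groups. The sets share arrays and are not independent. In 5 of them the array was 3-day replicate 2, the 3-day array above the component limit. It read 6.74 for Psmb10 (others 8.04 to 8.12), 9.91 for Psmb6 (others 10.35 to 10.44), 6.55 for Psmb8 (others 7.32 to 7.44), 8.22 for Psmd13 (others 8.98 to 9.02) and 8.49 for Psme1 (others 9.17 to 9.28). Another 3-day array, replicate 4, read 9.76 for Psmc5 (others 9.35 to 9.41).

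Arrays among the 7 that stood apart gave a further 4. Control replicate 1 read 6.73 for Psmb10 (others 7.50 to 7.79), 4-week replicate 1 read 6.53 for Psmb8 (others 7.12 to 7.21) and 5.97 for Psmb9 (others 6.92 to 7.08), and 1-week replicate 4 read 10.28 for Psmb6 (others 10.00 to 10.02). Psmb7 stood high in 1 array at each of 3 times, with 9.08 in 12-hour replicate 3, 9.38 in 48-hour replicate 3 and 8.25 in 4-week replicate 3. Psmb6 read 10.13 in control replicate 3 (others 10.05 to 10.07). What sets these arrays apart was not tested.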

How the results depend on the processing

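Members called at 24 hours against control numbered 25 to 35 under every setting, and those called at any time 37 to 42. No setting left out a single 24-hour array. Other counts moved by over 1.5 times, given here in time order against control and then between times. Without the 7 arrays they were 6 at 1 hour, 2 at 2 weeks, 11 at 4 weeks, 15 at 12 hours against 1 hour, 9 at 1 week against 24 hours, and 0 times for each of the 3 catalytic pairs. With the hybridisation controls as a covariate they were 0 at 1 hour, 11 at 6 hours, 10 at 48 hours, 0 at both 3 and 4 days, 0 at 1 and 2 weeks, 1 at 4 weeks, 0 at 3 months and 3 at 1 week against 24 hours. With the poly-A controls they were 4 at 1 hour, 13 at 3 days, 2 at 4 days, 0 at 2 weeks, 10 at 4 weeks, 8 at 3 months, 3 at 1 week and 13 at 3 months against 24 hours. With the Gapdh difference they were 0 at 1 hour, 18 at 12 hours, 1 at 2 weeks, 7 at 4 weeks and 3 at 1 week against 24 hours. With the probe set component they were 11 for 48 hours, 13 for 3 days, 8 for 4 days, 7 for 1 week, 1 for 3 months, 8 at 1 week and 13 at 3 months against 24 hours. In the 35 arrays they were 15 at 48 hours, 15 at 4 days, 7 at 2 weeks and 2 at 48 against 24 hours, with no value at 1 week and 3 months. That subset holds 1 array at 3 days, so its count there is not given. Array weights gave 17 at 1 hour, 10 at 2 weeks, 16 at 12 hours against 1 hour, 2 at 48 against 24 hours and 18 at 1 week against 24 hours. The compared groups alone gave 1 at 1 hour, 0 at 2 weeks, 11 at 4 weeks, 17 at 12 hours against 1 hour and 1 at 1 week against 24 hours. The mean of probe sets gave 6 at 1 hour, 19 at 4 days, 2 at 2 weeks, 16 at 3 months and 2 times for Psmb8 minus Psmb5. Quantile normalisation gave 14 at 48 hours, 18 at 4 days, 16 at 3 months, 2 at 48 against 24 hours and 13 at 3 months against 24 hours. The replicate block gave 2 at 2 weeks, 2 at 48 against 24 hours and 4 at 3 months against 24 hours. The deviations of operated arrays correlated between -0.27 and 0.19 with those of the control array of the same number. Operated groups were not compared with each other in this way. Whether same-numbered arrays share more than a number was therefore not settled.

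Arrays of every group but 24 hours were left out 1 at a time. In comparisons that involve 24 hours, only arrays of the other group were left out. Leaving out 1 array gave 3 to 13 calls at 1 hour, 13 to 20 at 6 hours, 24 to 31 at 12 hours, 25 to 31 at 24 hours, 17 to 25 for 48 hours, 25 to 28 for 3 days, 23 to 30 for 4 days, 26 to 29 for 1 week, 0 to 7 at 2 weeks, 12 to 22 at 4 weeks and 21 to 27 at 3 months. Between times it gave 4 to 7 at 12 hours and 6 to 9 at 24 hours against 1 hour, and 1 to 2 at 48 hours, 2 to 8 at 1 week and 6 to 8 at 3 months against 24 hours. It gave 41 to 42 at any time and, as numbers of times, 0 to 1 for Psmb8 minus Psmb5, 0 to 3 for Psmb9 minus Psmb6 and 0 to 2 for Psmb10 minus Psmb7, where the smallest p possible rises above 0.0079 at 6 and 12 hours. Of 791 alternative values for single genes, 722 kept direction and call, 66 lost the call and 3 reversed. These were Psmc2 at 1 week with the mean of probe sets (0.024), and Psmc4 (0.20) and Psmd6 (0.20) at 3 months with the component. The cause was not tested. Genes near background, such as Psma8 and Psmb11, are limited by signal.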
